A study of Mus musculus with 6 samples.

Results

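The suppressor of cytokine signalling genes Socs1 to Socs7 and the related gene Cish were examined in common myeloid progenitors, the fetal liver precursors of both the erythroid-megakaryocytic and the granulocyte-monocyte branches of blood formation. The members were the rows whose Ensembl identifiers carry these 8 symbols, out of 24815 genes listed per library, and all 8 passed the filter on low counts that left 12222 genes for testing. RNA was sequenced in 3 libraries (C, D and Q) from C57BL/6 embryos homozygous for deletion of the Gata2 -77 enhancer (-77-/-) and in 3 libraries (A, F and L) from wild-type (WT) C57BL/6 embryos, all at E13.5 (embryonic day). Both genotypes were sorted with the same gate, which took lineage-negative, Sca-1-negative cells positive for CD34 and c-Kit and low for Fc receptor. The enhancer lies far from Gata2, a gene that encodes a transcription factor of blood progenitors, and its deletion is carried by every cell of the embryo. The labels do not say whether a library is 1 embryo or a pool, nor whether libraries come from separate litters, so the tests compare these libraries, and their spread may be partly technical.

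Cytokines bind receptor chains that carry JAK kinases, which activate STAT transcription factors. STATs switch on Cish, Socs1, Socs2 and Socs3, whose proteins then curb the same receptors, so that transcripts of these genes are commonly read as a trace of recent cytokine signalling in blood cells. Every member has an SH2 domain, which binds phosphorylated tyrosine, and a SOCS box, which recruits elongins and a cullin to form a ubiquitin ligase. SOCS1 and SOCS3 also block JAK kinases directly. Socs4 to Socs7 encode proteins with long amino-terminal regions, and their transcripts depend less on cytokines.

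Socs2 was the member that changed, and it was higher in the mutant. The other members did not pass the test. The transcripts of Socs4, Socs5, Socs6 and Socs7 made up most of the family in both genotypes, while Socs1, Socs3 and Cish were scarce in every library. A difference in a sorted bulk sample cannot show whether there were fewer cells of a type or less RNA per cell.

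Sequences are shown for the members known to respond to cytokines whose region before the RefSeq start held a match to a known element. RefSeq's GRCm38.p6 table held promoters for 4 members (Cish, Socs1, Socs3 and Socs4), and the 250 bases before each RefSeq start were searched on both strands for the interferon element (GAAA, any 2 bases, GAAA), the STAT element TTCNNNGAA and the GATA element AGATAA. The Socs1 promoter, at chr16:10785537-10785786 on the minus strand, held 2 overlapping matches to the interferon element, which start 83 and 77 bases before the start. They are in capitals in the first sequence below. Of 32851 such promoters of 27025 genes, 2.98% held this element at least once and 0.18% at least 2 times. The interferon element was added to the search after the Socs1 letters had been seen. The second sequence is the Socs3 site at chr11:117969502-117969530 on the minus strand, where the capitals mark a TTCNNNGAA match that starts 154 bases before the RefSeq start. In GENCODE M21 the Socs3 gene runs from 117966079 to 117970047, so this site lies inside it, and the bases after the RefSeq start matched none of its GENCODE transcripts. That element stood in 7.02% of promoters, and it overlapped no other match. Cish and Socs4 held none of the 3 elements in this window, but the Cish window lies inside the GENCODE gene and the bases after the Socs4 start matched no GENCODE transcript of it, and AGATAA, held by 9.99% of all promoters, was in none of the 4.
Socs1: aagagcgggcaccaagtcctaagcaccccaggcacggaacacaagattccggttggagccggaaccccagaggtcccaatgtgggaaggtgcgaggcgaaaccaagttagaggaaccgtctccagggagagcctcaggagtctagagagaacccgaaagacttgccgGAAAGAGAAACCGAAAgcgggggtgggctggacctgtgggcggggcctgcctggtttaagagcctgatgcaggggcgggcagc
Socs3: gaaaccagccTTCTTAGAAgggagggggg

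Depth ran from 14800563 to 30596279 expected counts in the mutant and from 14473913 to 21509720 in WT. Gata2 had 8.92, 16.5 and 17.8 CPM (read counts relative to library size, scaled by TMM factors) in mutants C, D and Q, against 78.6, 57.4 and 63.9 CPM in WT A, F and L. The deleted element lies outside the transcript, so reads of Gata2 remain possible in the mutant. Its log2 change was -2.20 ± 0.30 (SE), with adjusted p = 0.068 by edgeR (quasi-likelihood test, Benjamini-Hochberg over all genes) and 0.0019 without mutant C. Transcripts of the gate's positive markers were present in every library, Cd34 at 998 to 1250 CPM in the mutant and 685 to 862 CPM in WT, and Kit at 102 to 292 CPM in the mutant and 317 to 337 CPM in WT. The T cell gene Cd3e was at 0 in all 6 libraries, and Cd48, whose protein was gated against, had 122 to 446 CPM in the mutant and 90.1 to 114 CPM in WT. Mutant C stood apart. Its log2 CPM correlated with those of the other libraries at 0.880 to 0.923 across genes, against 0.974 to 0.989 among the other 5, and its counts came from shorter genes (count-weighted mean length 1781 bases, against 2834 to 3124 bases). Tests and log2 changes use all 6 libraries unless stated, and the main ones are also given without mutant C.

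Socs2, an inhibitor of growth hormone receptor signalling that cytokines also induce in blood progenitors, rose 7.22-fold in the mutant. Its level was 13.1, 7.98 and 11.5 CPM in mutants C, D and Q, against 1.71, 1.51 and 1.24 CPM in WT A, F and L. The lowest mutant library was above the highest WT library, and the mutant mean was 10.9 ± 2.62 CPM against a WT mean of 1.49 ± 0.234 CPM (SD, n = 3 each). These values rest on 119.43, 167 and 372 expected counts in the mutant and 43, 24 and 20.96 in WT. The log2 change was 2.85 ± 0.27 (SE), with a 95% interval of 2.19 to 3.51, or 4.56-fold to 11.4-fold. The adjusted p was 0.032 by edgeR, and 0.0039 without mutant C, where the change was 6.46-fold. Over all genes 0.155% passed the threshold of 0.05, made of 0.00818% that rose, which is Socs2 alone, and 0.147% that fell. Of the 8 members 1 passed. The family was put together with the rise of Socs2 already known, so its place among the members adds no independent support.

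Leaving out a library other than mutant C ended the Socs2 call while the direction held. The log2 change was 3.04 without mutant D, 2.81 without mutant Q, and 2.97, 2.86 and 2.74 without WT A, F and L, with adjusted p between 0.060 and 0.24 by edgeR. In each of those subsets edgeR called 0 genes of the whole table. In the deposited TPM (a share of all transcripts, corrected for gene length), Socs2 stood at 3.91, 7.50 and 9.42 in mutants C, D and Q, against 2.06, 1.31 and 1.19 in WT A, F and L. The genotypes do not overlap in this unit either, and the two-sided exact permutation test gave p = 0.1, the smallest that 3 libraries against 3 allow. By limma on log2(TPM + 1) the change was 1.60 with an adjusted p of 0.44, so the call is not made in that unit.

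Socs2 had the 11th smallest p of the 12222 genes and the 17th largest log2 change. Without mutant C, 10 genes rose, and Socs2 had the largest change among them. Hepatoblast transcripts mostly read higher in the mutant, but their summed levels overlapped between the genotypes. Their list of 16 genes, none at 0 in every library, summed to 245, 119 and 688 CPM in mutants C, D and Q, against 132, 87.1 and 61.7 CPM in WT A, F and L. Of its 15 tested genes 14 had a log2 change above 0, with a median of 2.86, 11 at an unadjusted p under 0.05, 0 called by edgeR and 7 by DESeq2. Without mutant C 16 of 16 were above 0, with a median of 2.79, 14 at an unadjusted p under 0.05 and 0 called by edgeR. Over all genes 4.79% were at an unadjusted p under 0.05 by edgeR, and 10.3% without mutant C. DESeq2 called 0.73% of all genes with all libraries. The part of hepatoblast RNA in the Socs2 values was not tested.

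**Figure D1:**
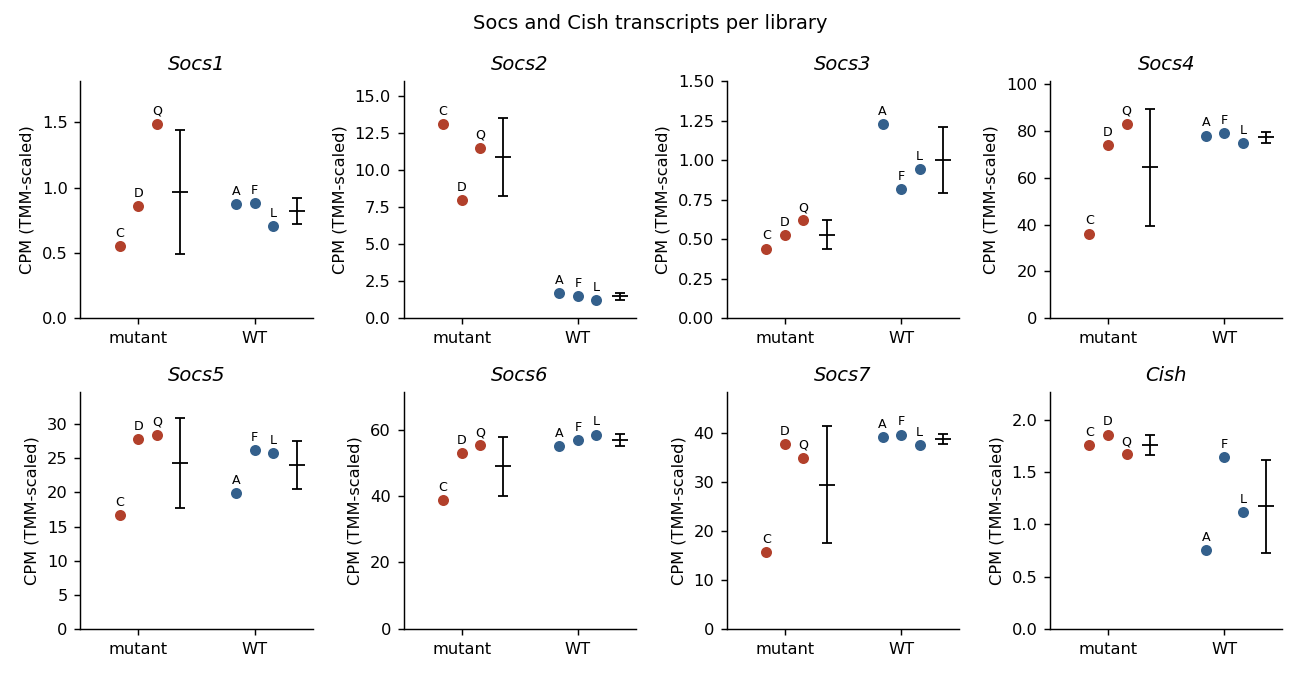
TMM-scaled CPM (vertical axis) of each Socs and Cish transcript, with a point per library labelled by its letter and the mean with SD (n = 3) as a black mark. The 3 mutant libraries lie between 7.98 and 13.1 CPM for Socs2, all above the WT libraries, while mutant C is the lowest library for Socs4, Socs5, Socs6 and Socs7.

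Cish, the founding member and a STAT5 target of the erythropoietin receptor, had 1.76, 1.86 and 1.67 CPM in mutants C, D and Q, against 0.755, 1.64 and 1.12 CPM in WT A, F and L. Every mutant library was above every WT library, by as little as 1.67 CPM in mutant Q over 1.64 CPM in WT F. The change did not pass the test (log2 change 0.61, 95% interval -0.21 to 1.43, adjusted p = 0.58 by edgeR). In TPM the genotypes overlapped, with 0.57, 2.63 and 1.39 in mutants C, D and Q and 1.02, 1.43 and 1.1 in WT A, F and L. Its counts were 16, 39 and 54 in the mutant and 19, 26 and 19 in WT.

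Socs3, the main brake on receptors that share gp130 and on the G-CSF receptor, had 0.441, 0.526 and 0.620 CPM in mutants C, D and Q, against 1.23, 0.820 and 0.947 CPM in WT A, F and L. Each mutant library was below each WT library. The log2 change of -0.88 (95% interval -1.64 to -0.12) had an unadjusted p of 0.029 and an adjusted p of 0.58 by edgeR, so it did not pass. The counts were few, with 4, 11 and 20 in the mutant and 31, 13 and 16 in WT. The 4 counts of mutant C have an exact Poisson interval of 1.09 to 10.2, which covers counting error only.

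Socs1, the inhibitor of interferon and common gamma chain receptors, had 0.551, 0.860 and 1.49 CPM in mutants C, D and Q, against 0.875, 0.883 and 0.710 CPM in WT A, F and L. Mutant C was the lowest of the 6 and mutant Q the highest, so the genotypes overlap. The log2 change of 0.31 had a 95% interval of -0.66 to 1.27 (adjusted p = 0.67 by edgeR), wide enough to hold a 2.42-fold rise. It rested on 5, 18 and 48 counts in the mutant and 22, 14 and 12 in WT.

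In all, the CPM of the genotypes did not overlap for 3 of 8 members, with the mutant higher for Socs2 and Cish and lower for Socs3. Among all tested genes the share without overlap was 22% (percent of 12222), made of 10.6% with the mutant higher and 11.4% with the mutant lower. The count of members is therefore no result on its own. The median log2 change of the 8 members was -0.09, beside -0.02 over all genes tested, and 4 of 8 were above 0, beside 48.0% of all genes. Without mutant C the median was 0.12, beside -0.01, and Socs2 was again the only member past the threshold by edgeR, where 0.84% of 12614 genes passed (0.0793% higher and 0.761% lower). The CPM without mutant C did not overlap for 28.9% of genes, 14.3% with the mutant higher and 14.6% with it lower, and for 4 members, Socs5 being the one added, with the mutant higher. DESeq2 and limma-voom on all 6 libraries also called Socs2 and no other member, against 0.73% of genes called by DESeq2 (0.153% higher, 0.577% lower) and 0.262% by limma-voom (0.00818% higher, 0.254% lower). DESeq2 without mutant C, chosen after seeing the data, called 1.73% of genes, 0.306% higher and 1.43% lower, and of the members Socs2.

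**Figure D2:**
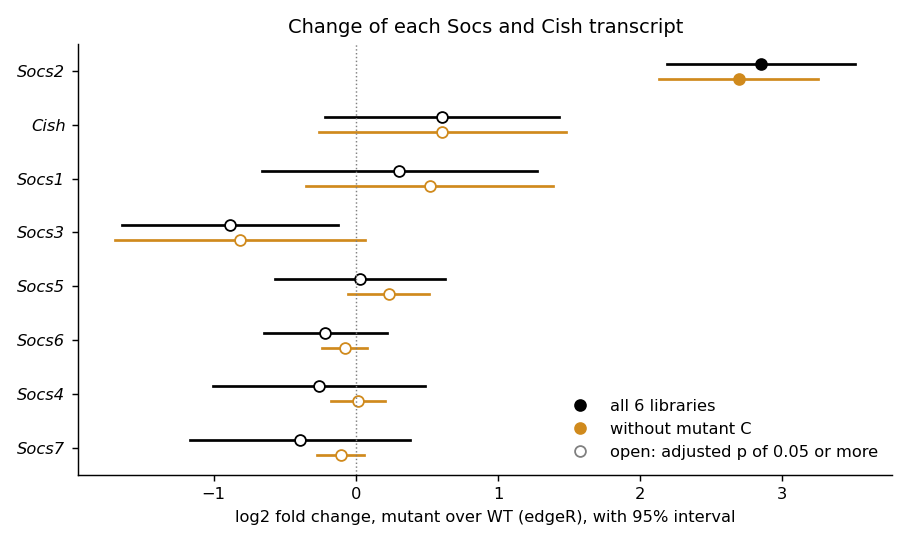
Log2 fold change of each member, mutant over WT, by edgeR, with its 95% interval; black marks use all 6 libraries, orange marks leave out mutant C, and filled points passed an adjusted p of 0.05. Socs2 lies at 2.85 and, without mutant C, at 2.69, with both intervals well above 0, and the intervals of Socs4 to Socs7 narrow without mutant C.

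Socs6, whose protein binds KIT and insulin receptor substrates, had 38.7, 52.8 and 55.3 CPM in mutants C, D and Q, against 55.0, 56.8 and 58.5 CPM in WT A, F and L. Its log2 change was -0.21 (95% interval -0.65 to 0.22), and -0.08 (-0.24 to 0.08) without mutant C. Mutant C was the lowest library and mutant Q lay within the WT range.

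Socs4, which like Socs5 is linked to epidermal growth factor receptor turnover, had 36.2, 74.1 and 83.1 CPM in mutants C, D and Q, against 78.1, 79.1 and 74.7 CPM in WT A, F and L. The change was -0.26 on the log2 scale (95% interval -1.0 to 0.48), and 0.02 (-0.17 to 0.20) without mutant C. Mutant Q was the highest library and mutant C the lowest.

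Socs7, whose protein binds STATs and cytoskeletal adaptors, had 15.7, 37.7 and 35.0 CPM in mutants C, D and Q, against 39.1, 39.7 and 37.6 CPM in WT A, F and L. Its log2 change was -0.39 (95% interval -1.17 to 0.38), and -0.11 (-0.27 to 0.06) without mutant C. Mutant D lay just above the lowest WT library, and mutants C and Q were below all WT libraries.

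Socs5, an inhibitor linked to interleukin 4 and growth factor receptors, had 16.7, 27.8 and 28.5 CPM in mutants C, D and Q, against 19.9, 26.2 and 25.8 CPM in WT A, F and L. The log2 change was 0.03 (95% interval -0.57 to 0.63), and 0.23 (-0.05 to 0.52) without mutant C. Mutants D and Q were above every WT library, and mutant C was below them.

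By edgeR none of Socs4 to Socs7 passed, with adjusted p from 0.59 to 0.95, or from 0.55 to 0.95 without mutant C. Their counts summed to at least 1352 per genotype, and without mutant C the intervals hold no log2 change beyond 0.52 in either direction. For Socs1, Socs3 and Cish, with 4 to 54 counts per library, the intervals without mutant C still reach a log2 change of 1.39, -1.69 and 1.48. A change of Socs2's size would lie outside all of these intervals.

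Across the library, longer genes read lower in mutant C than in the other mutant libraries, and the longest members were among them. Over 12222 genes the log2 ratio of mutant C to the mean of mutants D and Q had a Spearman's rho of -0.75 with gene length, a correlation across genes, which are not independent replicates. Its median was 1.26 for 2537 genes under 1500 bases, 0.37 for 3199 genes of 1500 to 2500 bases, -0.30 for 3559 genes of 2500 to 4000 bases, -0.89 for 1929 genes of 4000 to 6000 bases, and -1.36 for 998 genes over 6000 bases.

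Socs7 (7015 bases) and Socs4 (6873 bases) had log2 ratios of -1.20 and -1.11, Socs5 (4392 bases) -0.75 and Socs6 (3703 bases) -0.48. These are the longest transcripts of the family, and the ratios order them by length, with the longest the lowest. Socs3 (2552 bases) was at -0.31 on few counts. Socs2 (2052 bases) was at 0.45, beside the median of 0.37 for genes of its length class. Cish (1870 bases) had the same level in mutant C as in D and Q, against a median of 0.37 for that class. Socs1, the shortest at 1220 bases, was at -0.92, opposite in sign to the median of its class, on 5 counts in mutant C. With the length trend of each library removed, the log2 change of Socs2 by limma was 2.65 with an adjusted p of 0.0065, and those of Socs4 and Socs7 were 0.14 and 0.00.

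**Figure D3:**
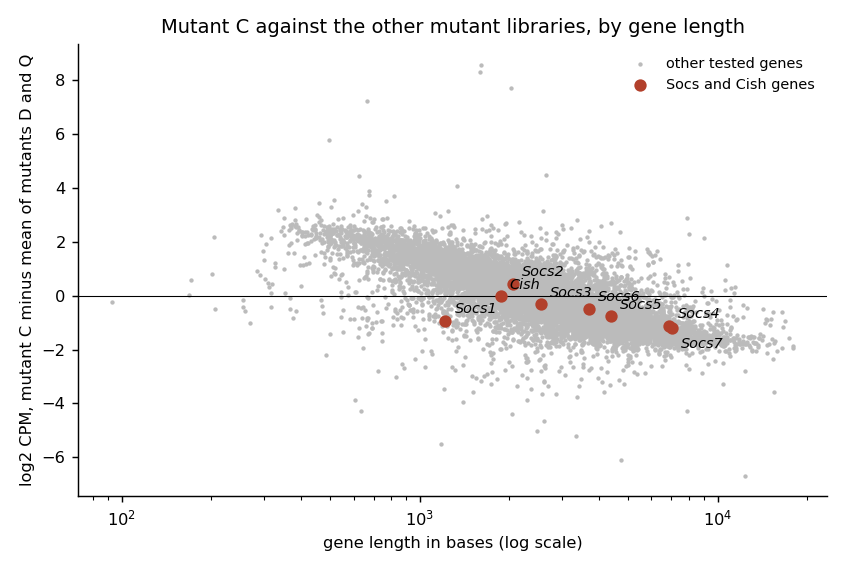
Log2 CPM of mutant C minus the mean log2 CPM of mutants D and Q (vertical axis) against gene length in bases (log scale) for 12222 tested genes, with the 8 members in red. Long genes lie below 0, and Socs4 and Socs7, at -1.11 and -1.20, lie lower than Socs2 at 0.45.

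TPM, which allows levels to be compared between genes, put Socs6 first in all 6 libraries. In WT the mean TPM was 30.0 for Socs6, 22.2 for Socs4, 10.9 for Socs7, 10.7 for Socs5, 1.52 for Socs2, 1.37 for Socs1, 1.18 for Cish and 0.790 for Socs3. Socs7 and Socs5 were not separated by their spread, nor were any neighbours in the order from Socs2 down to Socs3. Each other pair of neighbours was separate in all 3 WT libraries.

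In the mutant the mean TPM was 19.3 for Socs6, 14.7 for Socs4, 8.48 for Socs5, 6.94 for Socs2, 6.66 for Socs7, 1.53 for Cish, 1.26 for Socs1 and 0.303 for Socs3. All neighbours in that order overlapped, and mutant C had the lowest TPM of the 3 mutant libraries for all 8 members. Without mutant C the means were 25.1 for Socs6, 20.4 for Socs4, 11.5 for Socs5, 9.28 for Socs7 and 8.46 for Socs2, where Socs7 and Socs2 overlapped. Socs2 ranked 2, 5 and 4 among the 8 members in mutants C, D and Q, against 5, 7 and 5 in WT A, F and L.

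The make-up of the family's transcripts differed accordingly. Socs2 was 19.6%, 9.25% and 12.3% of the summed TPM in mutants C, D and Q, against 2.43%, 1.70% and 1.60% in WT A, F and L. Socs4 to Socs7 together were 75.4%, 85.3% and 82.6% in mutants C, D and Q, against 93.3%, 93.8% and 94.5% in WT A, F and L. The summed TPM itself was 19.9, 81.1 and 76.6 in the mutant libraries, against 84.7, 77.1 and 74.3 in WT, so that mutant C differed from all others in total and mutants D and Q lay within the WT range. No test was run on these sums, since the members were chosen with the Socs2 result known.

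**Figure D4:**
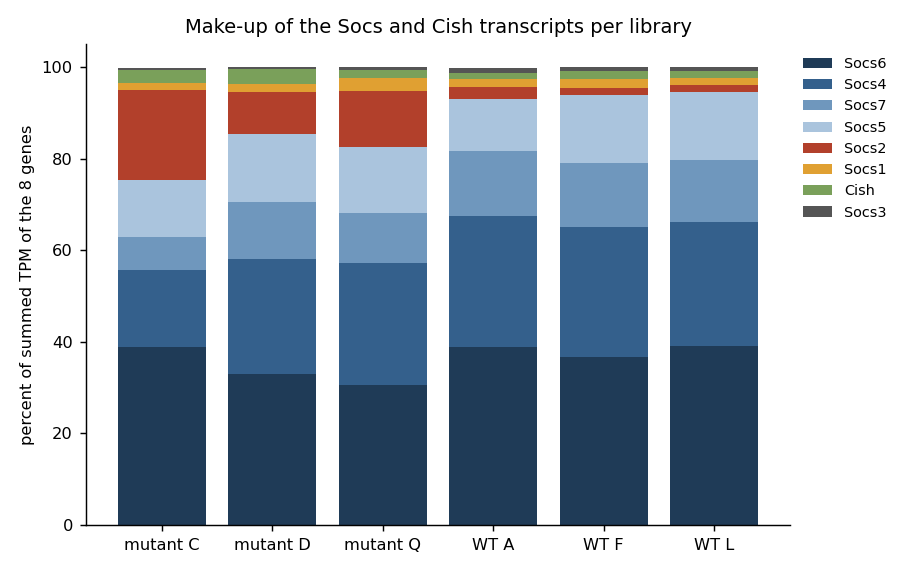
Share of each member in the summed TPM of the 8 genes (percent, vertical axis) in each library, with the 3 mutant libraries left of the 3 WT libraries. The red Socs2 band is 9.25% to 19.6% in the mutant and 1.60% to 2.43% in WT.

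The genes that act above, beside and below these inhibitors were mostly not called. Of 142 such genes in the files, in 8 lists that leave out the members, 103 were tested and 1 passed by edgeR (0.971%, beside 0.155% of all genes), the erythropoietin receptor gene Epor. Without mutant C it was again 1 of 103, the same gene, beside 0.84% of all genes. Their median log2 change was -0.12 with all libraries and -0.03 without mutant C. By list, the medians without mutant C were -0.09 for receptors, -0.16 for ligands and -0.01 for other inhibitors. They were 0.04 for other SOCS box genes, -0.14 for STAT5 targets and -0.26 for STAT3 targets. At an unadjusted p under 0.05 there were 11 of 103, or 10.7%, beside 4.79% of all genes, and without mutant C 22 of 103, or 21.4%, beside 10.3% of all genes. DESeq2 with all libraries called Epor and Il5ra. DESeq2 without mutant C, chosen after seeing the data, called 7 of these genes, all lower in the mutant. That fit called 1.43% of all genes lower.

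Of 25 ligand genes in the files, 5 passed the filter on low counts and 6 were at 0 in every library. The other ligands were too scarce to test. Of the 5 tested, 0 passed by edgeR, DESeq2 or limma-voom. At an unadjusted p under 0.05 there was 1 by edgeR, and the median log2 change was -0.25. Igf2, the fetal insulin-like growth factor, had 6.94, 4.25 and 37.2 CPM in mutants C, D and Q, against 5.01, 3.22 and 3.49 CPM in WT A, F and L (adjusted p = 0.58 by edgeR). Its high value was in mutant Q, the library with the highest hepatoblast sum, and the part of those cells in it was not tested. Csf1, the macrophage growth factor, and Osm, which encodes oncostatin M, had log2 changes of -0.48 and -0.34. Without mutant C these were -0.15 and -0.45.

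Of 30 tested receptor chains and adaptors 1 fell and 0 rose by edgeR, with 3 at an unadjusted p under 0.05 and a median log2 change of -0.24. The fit without mutant C had 7 of 30 at an unadjusted p under 0.05, beside 10.3% of all genes. Epor, whose product drives red cell formation through JAK2 and STAT5, had 0.661, 0.478 and 0.651 CPM in mutants C, D and Q, against 6.60, 3.97 and 4.26 CPM in WT A, F and L. The genotypes were far apart, with a log2 change of -3.05 ± 0.33 (SE, adjusted p = 0.044 by edgeR). Il5ra, the interleukin 5 receptor chain, averaged 0.481 CPM in the mutant and 1.89 CPM in WT (log2 change -1.88, adjusted p = 0.18). Irs2, an insulin receptor substrate, had a log2 change of -0.94 (adjusted p = 0.58).

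Of 10 JAK and STAT genes 0 passed by edgeR, DESeq2 or limma-voom, with 8 below 0 and a median log2 change of -0.38, or -0.14 without mutant C. By edgeR 1 of 10 was at an unadjusted p under 0.05, beside 4.79% of all genes. The fit without mutant C had 4 of 10, beside 10.3% of all genes. Jak3, the kinase of the common gamma chain, had 20.8, 43.8 and 43.3 CPM in mutants C, D and Q, against 84.7, 56.6 and 64.2 CPM in WT A, F and L. The genotypes do not overlap, and the log2 change was -0.92 ± 0.33 (SE), with an adjusted p of 0.58 by edgeR and 0.19 without mutant C. Jak2, the kinase of the erythropoietin and thrombopoietin receptors, averaged 49.7 CPM in the mutant and 72.2 CPM in WT, and Stat3 70.9 CPM in the mutant and 112 CPM in WT. Each mutant library was below each WT library for both genes, as for 11.4% of all tested genes. The log2 changes were -0.54 for Jak2 and -0.66 for Stat3 (adjusted p = 0.58 by edgeR for each). Without mutant C they were -0.35 and -0.41, with adjusted p of 0.14 and 0.105 by edgeR.

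Of 12 partners of the SOCS box and of their ubiquitin ligase 0 passed by edgeR, DESeq2 or limma-voom, with 0 at an unadjusted p under 0.05. Their median log2 change was 0.48, and 0.10 without mutant C. The elongin genes Elob and Eloc, which encode the pair that the SOCS box binds, had 306 and 321 CPM in mutant C. In mutants D and Q they had 71.8 and 77.2 CPM (Elob) and 79.3 and 100 CPM (Eloc), against WT means of 69.0 CPM for Elob and 77.5 CPM for Eloc. Nedd8, the modifier that activates cullins, had 485 CPM in mutant C, 103 and 124 CPM in D and Q, and a WT mean of 103 CPM. The high values of these 3 genes were in mutant C.

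Of 18 other inhibitors of receptor signalling 0 passed by edgeR, DESeq2 or limma-voom, with 0 at an unadjusted p under 0.05 and a median log2 change of -0.16. Ptpn6, the phosphatase SHP-1, averaged 271 CPM in the mutant and 213 CPM in WT, with a log2 change of 0.35. Dok2, an adaptor that restrains kinase signalling, was at 0.47 and Pias3, an inhibitor of STAT3, at -0.49 on the same log2 scale. Without mutant C, Ptpn6 was at 0.16, Dok2 at 0.15 and Pias3 at -0.31. Of 11 other genes with a SOCS box 0 passed by edgeR, DESeq2 or limma-voom, with 0 at an unadjusted p under 0.05 and a median of 0.14. The smallest p there belonged to Asb1, Asb3 and Spsb3, with log2 changes of -0.54, 0.43 and 0.34. Without mutant C their changes were -0.33, 0.05 and 0.14.

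Of 12 textbook STAT5 targets other than members 0 passed by edgeR, DESeq2 or limma-voom, with a median log2 change of -0.19. By edgeR 4 of 12 were at an unadjusted p under 0.05, beside 4.79% of all genes. The fit without mutant C had 7 of 12, beside 10.3% of all genes. Bcl2l1, the survival gene for BCL-XL, had 44.1, 49.3 and 43.2 CPM in mutants C, D and Q, against 31.6, 38.2 and 35.8 CPM in WT A, F and L. Id1, an inhibitor of helix-loop-helix factors, had 56.2, 24.9 and 29.0 CPM in mutants C, D and Q. It had 20.2, 14.7 and 20.9 CPM in WT A, F and L. For both, every mutant library was above every WT library in CPM, as for 10.6% of all tested genes. In TPM the genotypes overlapped for both. The log2 changes were 0.37 for Bcl2l1 and 0.97 for Id1 (adjusted p = 0.58 by edgeR for each). Without mutant C they were 0.39 and 0.52. Tfrc, the transferrin receptor gene, was the other way, with 88.9 CPM in the mutant and 134 CPM in WT (log2 change -0.59, adjusted p = 0.58). The STAT5 targets with the smallest p thus lay on both sides of 0.

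Of 7 STAT3 targets 0 passed by edgeR, DESeq2 or limma-voom, with 2 at an unadjusted p under 0.05 and a median log2 change of -0.37. These were Bcl3, a regulator of NF-kappaB, and Fos, a subunit of AP-1, at -1.35 and -0.87. For both, each mutant library was below each WT library in CPM, as for 11.4% of all tested genes. Tnfaip3, an inhibitor of NF-kappaB, was at -0.47. The 2 of 7 at an unadjusted p under 0.05 by edgeR stand beside 4.79% of all genes. The fit without mutant C had 3 of 7, beside 10.3% of all genes.

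**Figure D5:**
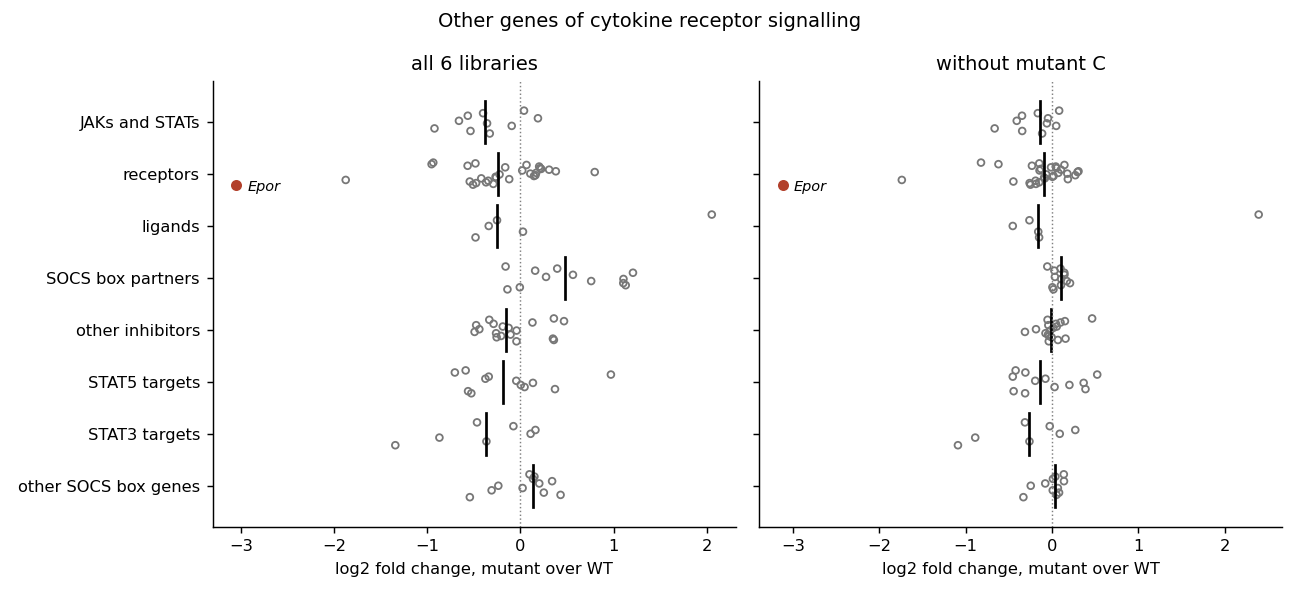
Log2 fold change, mutant over WT, of the tested genes of 8 lists of cytokine receptor signalling, with all libraries (left) and without mutant C (right); red points passed an adjusted p of 0.05 by edgeR and black bars are list medians. Epor is the single red point in either panel, at -3.05 and -3.11.

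The genes around the members were not called. Socs2 lies on chromosome 10 from 95385362 to 95417180 on the minus strand of mm10 (GENCODE M21), and 6 genes of the files lie within 250 kb of it. Of these, 4 were tested with all libraries, and 0 passed by edgeR, with 0 at an unadjusted p under 0.05. The fit without mutant C also had 0 passing and 0 at an unadjusted p under 0.05. It tested 2310039L15Rik as well, which lies 19160 bases from Socs2 and went the other way. That gene averaged 0.73 TPM in the mutant and 2.95 TPM in WT. Its log2 change without mutant C was -1.27 (adjusted p = 0.54 by edgeR). Nudt4, a phosphohydrolase gene, and Ube2n, a ubiquitin-conjugating enzyme gene, had log2 changes of 0.21 and 0.29. Cradd, a death domain adaptor gene, was at 0.62. Without mutant C, Nudt4, Ube2n and Cradd were at 0.20, 0.06 and 0.09. Mrpl42, a mitochondrial ribosomal gene, was at 1.35, and at 0.27 without mutant C. The gene 5730420D15Rik, which starts 195 bases from Socs2 on the other strand, averaged 0.0167 TPM in the mutant and was listed at 0 in WT. Around all 8 members 47 neighbours were tested with all libraries, and some others entered only the fit without mutant C. In either fit 0 passed by edgeR, beside 0.155% of all genes with all libraries and 0.84% without mutant C. At an unadjusted p under 0.05 there was 1 with all libraries, beside 4.79% of all genes. There were 5 without mutant C, beside 10.3% of all genes, among them Samd4, tested only in that fit. Neighbours of Cish (chromosome 9, 107296026 to 107302784) had a median log2 change of 0.21, or 0.06 without mutant C.

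The profile of Socs2 over the 6 libraries was most like those of Iqcg, Coq5, B3gnt5, C1qtnf6 and Ubl3, with Pearson's r of log2 CPM of 0.995, 0.995, 0.992, 0.975 and 0.972. These are the highest of 10477 genes compared over the same 6 libraries, 3 of each genotype, and they describe these libraries only. None of the 5 passed the test by edgeR. Iqcg, which encodes an IQ motif protein, averaged 3.47 CPM in the mutant and 1.71 CPM in WT, the widest gap of the 5 in log2 terms (1.01). Coq5, a coenzyme Q synthesis enzyme gene, averaged 40.2 CPM in the mutant and 36.5 CPM in WT. Among the members themselves, Socs4 and Socs7 were the most alike at 0.98, and Socs3 and Cish the most opposed at -0.89. Socs2 and Socs3 were the most opposed of the pairs with Socs2, at -0.88. All these values share the same libraries and the length trend of mutant C.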

How the data were processed

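Expected counts per gene, as estimated by RSEM, and TPM were deposited by the authors for 6 libraries, per the file headers. The submitters' processing notes name the build mm10 and the tools RSEM 1.2.18, CASAVA 1.8.2 and Bowtie 1.1.1. The sources used here do not give the annotation release, read layout or strand setting, so antisense reads cannot be told apart. Gene lengths come from the deposited length column, in bases. Symbols and positions come from GENCODE M21 (mm10), which matched 24448 of 24815 identifiers. Counts were rounded, and the fit was made in R 4.3.3 by edgeR 4.0.16 (filterByExpr with a minimum count of 10, TMM, quasi-likelihood F test, Benjamini-Hochberg over all genes tested, threshold 0.05). SEs are the absolute log2 change over the square root of F, and 95% intervals use the fit's degrees of freedom. DESeq2 1.42.0 and limma 3.58.1 served as alternatives, and each was tested on simulated data, where DESeq2 made more false calls than the others. The simulation held no library with a length trend like that of mutant C, so it cannot rank the methods for these data.

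No samples were paired, since replicate letters differ between groups. The members and lists were chosen with earlier results of these data known. Named genes are all members, called genes and the 3 smallest p of each list, Gata2, called neighbours within 250 kb, the 5 profiles most like Socs2 (mean of at least 50 counts) and the highest marker per cell type; untested markers, other neighbours and member pairs were named after their values were seen. Flt3l and Cebpd matched no symbol, and 1 planned list and 1 gene of another list are not reported here. Other marker lists were measured, and their values stand in the closing section.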

Additional observations from a re-analysis of the deposited data

How the results depend on the processing

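The count of genes past the threshold by edgeR was 19. It was 0 to 106 when a library was left out, 36 with no filter on low counts, 124 by DESeq2, 32 by limma-voom, 53 with the length trend removed and 11 on TPM with a pseudocount of 0.1. Without mutant C, settings chosen after seeing the data gave 243 by DESeq2 and 111 by limma-voom. Of the Socs and Cish genes 1 passed, and 0 to 1 did when a library was left out, and 0 on TPM with a pseudocount of 1 or 0.1 (2 at an unadjusted p under 0.05 by limma). Of the other pathway genes 1 passed, 0 to 1 when a library was left out, 2 by DESeq2, 0 on TPM by either pseudocount (4 at an unadjusted p under 0.05 by limma), and 7 by DESeq2 without mutant C. All 7 were lower in the mutant, in a fit that called 1.43% of all genes lower. The log2 change of Socs2 was above 0 under every alternative run, from 2.69 to 3.04 when a library was left out, and its call was lost on TPM, at 1.60 and 2.07 with pseudocounts of 1 and 0.1. Among members that did not pass, the sign turned for Socs1 (-0.17 to 0.52 when a library was left out, -0.32 with the length trend removed, -0.15 and -0.41 on TPM with pseudocounts of 1 and 0.1) and for Socs4 (-0.48 to 0.017 when a library was left out, 0.14 with the length trend removed, 0.029 by DESeq2 and 0.016 by limma-voom without mutant C). It also turned for Socs5 (-0.10 to 0.23 when a library was left out, -0.52 and -0.62 on TPM) and for Socs7 (0.001 with the length trend removed, in place of -0.39). The causes were not tested. Fewer libraries leave fewer degrees of freedom, and the counts of Socs1, Socs3 and Cish limit what could be detected for them.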

Other observations

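Marker lists named after other cell types were summed in CPM per library. Which cells of the sorted sample these transcripts came from, the progenitors included, was not tested. Megakaryocyte markers summed to 17.0, 9.85 and 10.4 in mutants C, D and Q, against 48.3, 37.0 and 41.3 in WT A, F and L, and 2 of 4 tested fell by edgeR, among them Itga2b, the integrin chain CD41 that the sort gated against. Mast cell markers summed to 25.4, 9.80 and 10.4 in mutants C, D and Q, against 131, 113 and 113 in WT A, F and L. None of the 4 tested passed by edgeR with all libraries (3 at an unadjusted p under 0.05, 3 called by DESeq2 and 2 by limma-voom), and 3 fell without mutant C, among them Cpa3, the mast cell carboxypeptidase gene. Over all genes edgeR called 0.155% with all libraries and 0.84% without mutant C. It put 4.79% and 10.3% at an unadjusted p under 0.05 in these fits. With all libraries DESeq2 called 0.73% and limma-voom 0.262%. These shares also stand beside the erythroid counts below.

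Erythroid markers summed to 2190, 324 and 312 in mutants C, D and Q, against 677, 899 and 467 in WT A, F and L, with Hba-a2, an adult globin gene, the highest. Of 10 tested 0 passed by edgeR with all libraries (3 at an unadjusted p under 0.05, 2 called by DESeq2 and 1 by limma-voom), with a median log2 change of -0.60 and 4 above 0. Without mutant C 2 fell by edgeR, 10 were at an unadjusted p under 0.05 and 0 were above 0, with a median of -1.15. Macrophage markers, led by Csf1r, summed to 177 to 223 in the mutant and 163 to 186 in WT. Csf1r alone had 149 to 202 CPM in the mutant and 146 to 166 CPM in WT. Neutrophil markers, led by Mpo, summed to 1710 to 2360 in the mutant and 2090 to 3150 in WT. Mpo alone had 1690 to 2350 CPM in the mutant and 2080 to 3130 CPM in WT. Endothelial markers, led by Pecam1, summed to 55.7 to 64.0 in the mutant and 76.9 to 84.0 in WT. Stromal markers, led by Pdgfrb, summed to 11.1 to 25.5 in the mutant and 26.8 to 31.1 in WT. Pdgfrb, the only stromal gene tested, had 10.9 to 24.0 CPM in the mutant and 26.4 to 30.5 CPM in WT. Lymphoid markers, led by Cd4, summed to 5.51 to 9.55 in the mutant and 7.71 to 12.5 in WT. The macrophage, neutrophil and stromal sums are thus mostly a single gene each. In the macrophage, neutrophil, endothelial, stromal and lymphoid lists edgeR called 0 genes, with all libraries or without mutant C. The hepatoblast gene with the highest TPM was Dlk1, which averaged 32.3 CPM in the mutant and 35.3 CPM in WT, a log2 change of -0.12, unlike the other 14 tested genes of its list, which were above 0. The part of any of these cells in the values of the Socs and Cish genes was not tested.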
